A study of Arabidopsis thaliana with 12 samples.

Results

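Transcripts of 5 nuclear Arabidopsis thaliana genes for organellar protein synthesis were followed in the prors2 mutant and in wild type (WT). They encode the plastid ribosomal proteins L17 (AT3G54210), L5 (AT4G01310), S6 (AT1G64510) and S10 (AT3G13120), and an organellar aspartyl-tRNA synthetase (AT4G33760, AspRS below). The genes were chosen by locus, each through the 1 array feature that the platform's gene table ties to that locus alone. They are 5 of the 692 single-gene features of an array of 3439 features, and no probe listing several genes names any of them. The gene tables carry few product names, so other genes of plastid or mitochondrial translation may stand on the array without being recognised here. The array reports transcripts, so ribosome number and protein level were not measured.

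The study set 6 prors2 samples against 6 WT samples, each array carrying total RNA of 1 sample. The labels describe prors2 as a mutant that lacks prolyl-tRNA synthetase, and place both groups in the Columbia 0 ecotype. They give no tissue, age, growth condition, allele type or number of plants per sample. Nothing in them says whether the 6 samples of a group were grown or extracted separately, and the p-values hold for the spread seen here, part of which may be technical. The comparison asked whether losing 1 tRNA synthetase went with a change in nuclear transcripts of the same translation machinery.

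Plastids keep a small genome and translate its messages on ribosomes of bacterial type, whose proteins are encoded partly in the plastid and partly in the nucleus. Aminoacyl-tRNA synthetases load each amino acid onto its tRNA before translation, and the organellar ones are made in the cytosol and imported. Plastid translation supplies core subunits of the photosystems, of the ATP synthase and of Rubisco.

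Before the genes themselves, the arrays as a whole have to be described, because their scale differed with genotype. The deposited relative intensity runs from 0 to 100 on a linear scale, and the labels do not say relative to what. The array median was 0.279 to 0.305 in prors2 and 0.135 to 0.169 in WT. An array held 262 to 316 features at 0 in prors2, against 368 to 396 in WT. The values were therefore taken to log2 with zeros missing and quantile-normalized, which gives all arrays the same distribution. Of 3024 tested features 47.2% were called (limma, Benjamini-Hochberg adjusted p under 0.05), 24.8% higher and 22.4% lower in prors2. The unscaled values gave 57.8% higher and 8.9% lower, arrays set to equal sums gave 55% and 9.85%, and centring each array on its median gave 19.8% and 29.1%. The median feature moved by 0.07 (log2, prors2 minus WT) after quantile normalization, 0.76 without scaling, 0.69 with equal sums and -0.06 with median centring. No probe was tied to AT5G52520 or AT3G62120, the 2 prolyl-tRNA synthetase loci looked for, and the genotype of a sample therefore rests on its label. None of the 14 marker loci of seed, root, senescent and green leaf had a single-gene probe (0 of 14), so the tissue was not checked.

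All 5 genes were above 0 in all 12 samples and were tested. After quantile normalization 2 of the 5 were called, 1 higher (L17) and 1 lower (AspRS), against 47.2% of all features. Of the 4 ribosomal protein genes 1 rose, 0 fell and 3 did not pass, with a median log2 difference of -0.28 beside 0.07 over all tested features. The 1 synthetase gene followed here fell. These shares are near the background, so the count by itself is no result about this machinery, and what follows concerns the size and steadiness of each gene's difference.

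**Figure D1:**
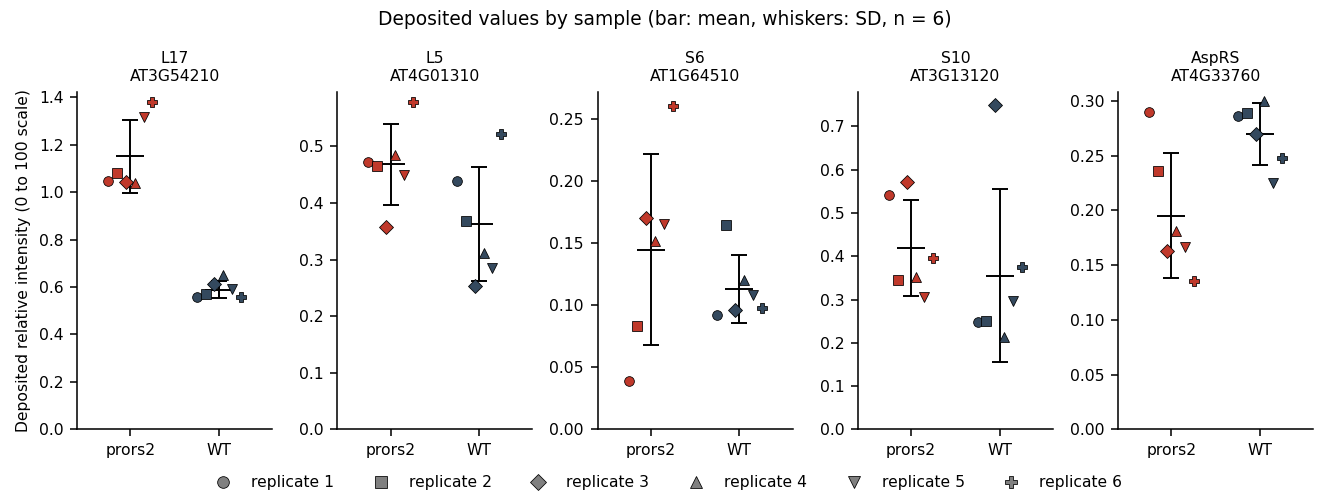
Deposited relative intensity of each gene by sample, prors2 left of WT in every panel, with marker shape giving the replicate number. Horizontal bars are means and whiskers are SD (n = 6 each); the y axes start at 0 and differ between panels. The L17 groups are apart (at least 1.04 in prors2, at most 0.649 in WT), while the other 4 genes overlap on this scale.

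L17, a large-subunit protein that in Escherichia coli sits near the exit of the peptide tunnel, was the ribosomal protein transcript that rose. Its relative intensity in prors2 replicates 1 to 6 was 1.05, 1.08, 1.04, 1.04, 1.32 and 1.38. In WT replicates 1 to 6 it was 0.557, 0.570, 0.612, 0.649, 0.590 and 0.558. The 2 groups did not overlap, and prors2 replicates 5 and 6 stood above the other 4. The mean was 1.15 ± 0.15 in prors2 and 0.589 ± 0.036 in WT (SD, n = 6 each), a ratio of 1.95. On the deposited values 38.2% of tested features were likewise wholly higher in prors2, so this separation is common on the array. In RNA of whole samples, a changed number of cells of a type and a changed amount of RNA per cell cannot be told apart.

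After quantile normalization L17 differed by 0.61 (log2, 95% interval 0.36 to 0.86, limma adjusted p = 9.82e-04), and its groups still did not overlap. On normalized values 16.3% of features were wholly higher in prors2. Of the 3024 tested features 1386 had a difference at least as large in either direction, so the size of the L17 difference was common on the array. The rank of L17 among the 3439 features, counted from the brightest, does not depend on how an array is scaled. It was between 336 and 472 in prors2 and between 560 and 629 in WT, so L17 stood among brighter features in all 6 prors2 arrays. Quantile normalization works from these ranks, so they restate the separation of the normalized values. The difference was positive for all 6 replicate numbers, from 0.43 to 0.94, as it was for 26.9% of the features with complete values. The deposited values and equal sums also gave a call, at 0.96 and 0.88 (limma adjusted p = 7.75e-06 and 2.07e-05). Median centring did not, at 0.13 (limma adjusted p = 0.338). Set against the median feature, the rise of L17 was 0.54 after quantile normalization but 0.19 under each of the other 3 scalings. Those 3 differ only by a factor per array, so against the median feature they agree by construction and count as 1 result.

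L17 was also one of the steadiest features among WT arrays. Its SD over the WT samples was 0.049 on the normalized log2 scale, at percentile 0.711 of all tested features, whose median SD was 0.298. In prors2 its SD was 0.24, at percentile 30.1, beside a median of 0.337. In prors2, replicates 1 to 4 lay between -0.13 and -0.05 on that scale, and replicates 5 and 6 at 0.35 and 0.41. The percentiles count features of every brightness, and the part of brightness in the small WT spread of L17 was not tested.

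L5, the large-subunit protein that binds 5S ribosomal RNA in bacteria, did not pass. Its relative intensity in prors2 replicates 1 to 6 was 0.473, 0.464, 0.357, 0.486, 0.450 and 0.579. In WT replicates 1 to 6 it was 0.438, 0.368, 0.254, 0.312, 0.285 and 0.522. The groups overlapped, but within each of the 6 replicate numbers the prors2 value was the higher one, by 0.11 to 0.66 on the log2 scale of the deposited values. That pattern was shared by 58.3% of the features with complete values. After quantile normalization the prors2 value was lower for 5 of the 6 numbers, and the fitted difference was -0.25 (95% interval -0.67 to 0.17, limma adjusted p = 0.321). With the replicate numbers as a block the interval was -0.48 to -0.01 and L5 still did not pass (limma adjusted p = 0.0738). L5 thus lay above 0 on the deposited values, at 0.40, while the median feature lay at 0.76. Replicate 3 was the lowest and replicate 6 the highest in prors2, and the same held in WT.

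S6, which pairs with S18 on the platform of the bacterial small subunit, was the most uneven of the 5 in the mutant. Its relative intensity in prors2 replicates 1 to 6 was 0.039, 0.083, 0.170, 0.152, 0.165 and 0.261. In WT replicates 1 to 6 it was 0.092, 0.165, 0.096, 0.121, 0.109 and 0.098. Replicates 1 and 2 of prors2 were lower than every WT sample, and the other 4 prors2 values overlapped the WT range or exceeded it. The coefficient of variation was 53.0% in prors2 and 24.1% in WT. On the normalized log2 scale the prors2 SD of 0.97 stood at percentile 89.7 of all tested features, and the WT SD of 0.30 at percentile 51.2. These percentiles count features of every brightness, and S6 was among the dimmest 25% of tested features. Its rank among the 3439 features was 2988 and 2803 in prors2 replicates 1 and 2. The part of dimness in this spread was not tested.

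The fitted S6 difference was -0.77 (log2, 95% interval -1.62 to 0.07, limma adjusted p = 0.124), an interval that holds both no change and a fall of more than 1 unit. By replicate number the normalized difference was -2.08 and -1.89 for replicates 1 and 2, and -0.04, -0.52, -0.51 and 0.39 for replicates 3 to 6. Without replicates 1 and 2 of both genotypes the difference was -0.17 (limma adjusted p = 0.569), an alternative chosen after seeing the data. Without prors2 replicate 6 alone it passed, at -1.01 (limma adjusted p = 0.0379). The S6 value therefore rests on which arrays are included. On the deposited values the sign turned, with a difference of 0.16.

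S10, a protein of the head of the small subunit in bacteria, did not pass either. Its relative intensity in prors2 replicates 1 to 6 was 0.542, 0.345, 0.571, 0.352, 0.305 and 0.397. In WT replicates 1 to 6 it was 0.247, 0.251, 0.749, 0.214, 0.296 and 0.375. WT replicate 3 was the highest of all 12 samples, and the other 5 WT samples lay at or below 0.375. The fitted difference was -0.31 (log2, 95% interval -0.92 to 0.29, limma adjusted p = 0.384), and by replicate number the normalized difference ran from -0.78 to 0.56. Without WT replicate 3 the difference was -0.12, and on the deposited values it was 0.34.

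**Figure D2:**
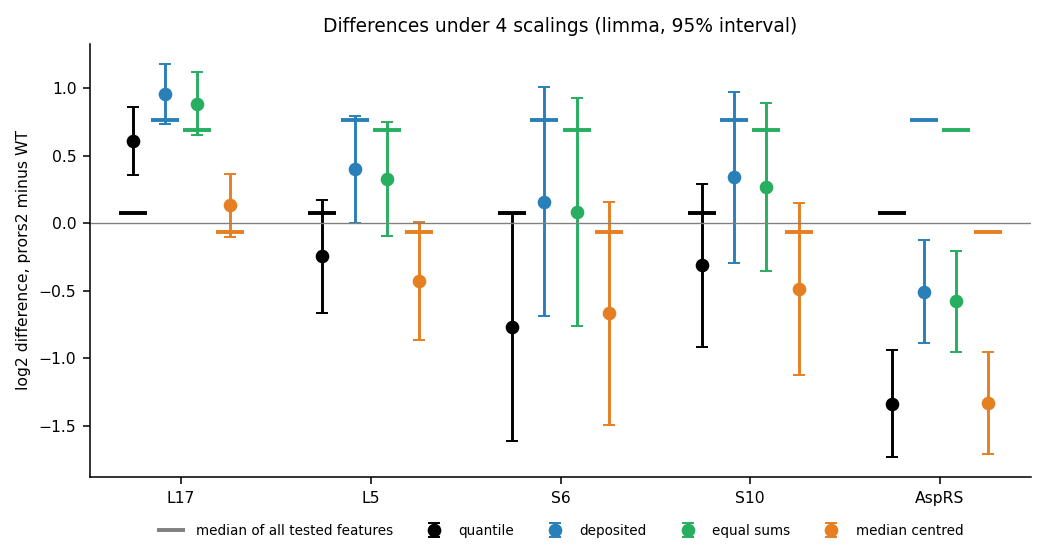
Log2 difference, prors2 minus WT, of each gene under 4 scalings, with limma 95% intervals (points and whiskers) and the median difference of all tested features under the same scaling (short horizontal bars). AspRS lay below 0 under all 4 scalings, L17 above 0, and L5, S6 and S10 changed sign between scalings but lay below the median feature in each. The scalings other than quantile differ only by a factor per array, so their distances to the median feature agree by construction.

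AspRS, the enzyme that loads aspartate onto organellar tRNA, had the largest difference of the 5 after quantile normalization. Its relative intensity in prors2 replicates 1 to 6 was 0.290, 0.236, 0.163, 0.181, 0.166 and 0.135. In WT replicates 1 to 6 it was 0.286, 0.289, 0.270, 0.300, 0.225 and 0.248. The groups overlapped on this scale through prors2 replicates 1 and 2, of which replicate 1 was level with WT, and the other 4 prors2 values lay below all WT values. The mean was 0.195 ± 0.057 in prors2 and 0.270 ± 0.028 in WT (SD, n = 6 each), a ratio of 0.724.

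On the normalized scale the AspRS groups did not overlap, as for 14.8% of features wholly lower in prors2. The normalized log2 values ran from -3.39 to -2.16 in prors2 and from -1.65 to -1.45 in WT. AspRS fell by 1.34 (log2, 95% interval -1.74 to -0.94, limma adjusted p = 8.55e-05). Its rank among the 3439 features, which restates the normalized values, was between 1676 and 2570 in prors2, against 1113 to 1236 in WT. The call held with every scaling, with differences of -0.51 for deposited values, -0.58 for equal sums and -1.33 for median centring (limma adjusted p = 0.0224, 0.0110 and 5.11e-05). Relative to the median feature it lay at -1.41 after quantile normalization and at -1.27 under the other 3 scalings, which agree here by construction. Among the 3024 tested features 393 had a difference at least as large in either direction, so AspRS was not an extreme of the array.

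**Figure D3:**
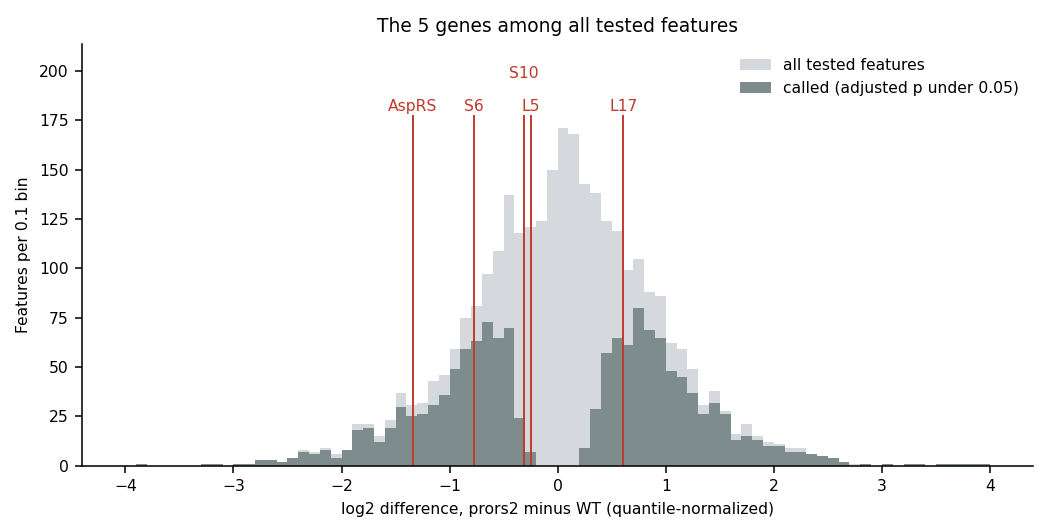
Number of tested features (3024) by log2 difference, prors2 minus WT, in bins of 0.1, with called features in darker grey and the 5 genes as vertical lines. AspRS (-1.34) lies in the lower tail, L17 (0.61) in the upper shoulder, and L5 (-0.25), S6 (-0.77) and S10 (-0.31) left of the centre; 1 feature beyond 4 is not drawn.

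The AspRS fall was not the same size in all pairs of samples. By replicate number the normalized difference was -0.71, -1.06, -1.53, -1.46, -1.42 and -1.85 for replicates 1 to 6, so the direction held for 6 of 6 numbers, as it did for 25.6% of the features with complete values. On the deposited values 5 of 6 numbers were lower, with replicate 1 at 0.02, and 10.7% of those features were lower for all 6 numbers. WT was nearly constant, with an SD of 0.071 at percentile 1.84 of all tested features, counted over every brightness. In prors2 the SD was 0.45, at percentile 65.4. Leaving out replicates 1 and 2 of both genotypes gave -1.58, leaving out replicates 3 and 4 gave -1.26 and leaving out replicates 5 and 6 gave -1.18, each still called lower (limma adjusted p = 9.73e-05, 0.00709 and 0.00307).

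**Figure D4:**
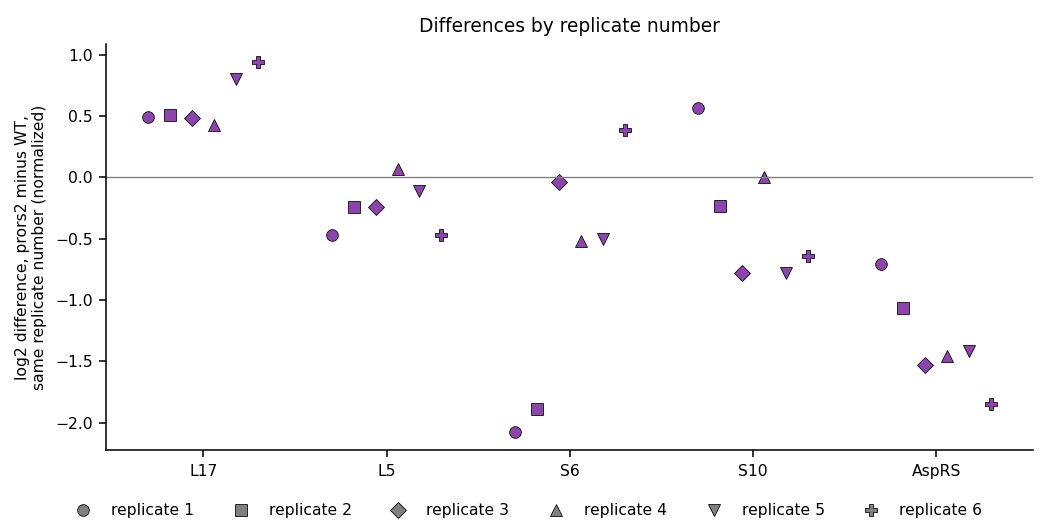
Normalized log2 difference between the prors2 and WT samples of the same replicate number, for each gene, with marker shape giving the number. All 6 points lie above 0 for L17 and below 0 for AspRS, and the S6 points of replicates 1 and 2 (-2.08 and -1.89) lie apart from the other 4.

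The replicate numbers also showed that the genes did not share one order across mutant arrays. In prors2, replicates 1 and 2 had the lowest S6 and the highest AspRS values, and replicate 6 had the highest S6 and the lowest AspRS value. L17 was highest in replicates 5 and 6. L5 and S10 followed neither order, with their lowest prors2 values in replicates 3 and 5, though L5, like L17 and S6, was highest in replicate 6. Averaged over neighbouring numbers on the normalized scale, S6 differed by -1.98 in replicates 1 and 2, -0.28 in 3 and 4 and -0.06 in 5 and 6. AspRS differed by -0.88, -1.50 and -1.63 over the same 3 sets, and L17 by 0.50, 0.46 and 0.87. On the deposited values S6 differed by -1.11, 0.58 and 1.01, so its sign turned in 2 of the 3 sets. AspRS there differed by -0.14, -0.73 and -0.66, and L17 by 0.92, 0.72 and 1.23. The labels do not say what the numbers stand for, and the part of any shared handling in these differences was not tested.

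A ratio between 2 genes of the same array is unaffected by any factor that scales that array as a whole, so it compares the genes' changes without a choice among the 3 linear scalings. Such a ratio shows unequal change, and its own level has no meaning across probes. All 10 pairs of the 5 genes were computed on the deposited values, as a description with no test. The groups did not overlap in 1 of 10 pairs, L17 over AspRS, beside 27.4% of all pairs of single-gene features with complete values. The log2 ratio of L17 over AspRS in prors2 replicates 1 to 6 was 1.85, 2.20, 2.68, 2.52, 2.98 and 3.35. In WT replicates 1 to 6 it was 0.96, 0.98, 1.18, 1.12, 1.39 and 1.17. All 6 mutant arrays thus stood above all 6 WT arrays, with a difference in means of 1.46.

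The ratios of the other ribosomal protein genes to AspRS differed in the same direction but overlapped between genotypes. For L5 over AspRS the mean was 1.30 ± 0.48 in prors2 and 0.39 ± 0.42 in WT (SD, n = 6 each), and the prors2 value was higher for 6 of 6 replicate numbers. For S10 over AspRS it was 1.11 ± 0.47 in prors2 and 0.26 ± 0.72 in WT, also higher for 6 of 6 numbers. For S6 over AspRS it was -0.61 ± 1.37 in prors2 and -1.27 ± 0.30 in WT, and higher for 4 of 6 numbers, since prors2 replicates 1 and 2 lay below WT. Among the ribosomal protein genes, the log2 ratio of L17 was higher in prors2 by 0.56 over L5, 0.80 over S6 and 0.62 over S10, with overlapping groups in each case. The prors2 ratio was higher for 6 of 6 numbers over L5, but for 4 of 6 over S6 and 4 of 6 over S10. How many of all feature pairs keep 1 direction in 6 of 6 numbers was not computed. Of single features with complete values, 58.3% were higher and 10.7% lower in all 6 numbers on the deposited values. Without replicate 1 the difference of L17 over S6 was 0.53. L5 over S10 differed by 0.06 and S6 over S10 by -0.18, both smaller than the SD of either group, and each took either sign as single replicate numbers were left out.

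**Figure D5:**
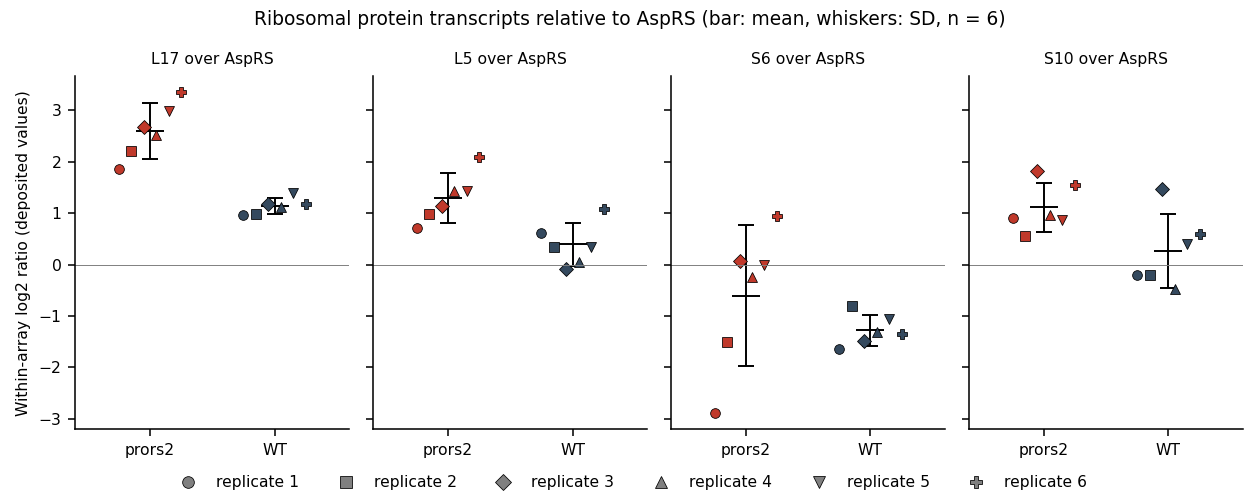
Within-array log2 ratio of each ribosomal protein gene over AspRS on the deposited values, prors2 left of WT, with bars for means and whiskers for SD (n = 6 each) and marker shape for the replicate number. The L17 ratio is at least 1.85 in prors2 and at most 1.39 in WT; the other 3 ratios overlap between genotypes.

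Single-gene features whose normalized values followed each gene most closely over the 12 samples are given as a description, since a shared genotype difference and shared arrays raise any such likeness. For L17 they were AT4G31530, AT4G17070 and CCL (AT3G26740), with Pearson r of 0.99, 0.96 and 0.96 among 509 features. For AspRS they were AT2G21530, GLDH (AT3G47930), which makes ascorbate in its last step, and AT1G17160, at 0.96, 0.92 and 0.92. For S6 they were AT3G15900, AT5G56070 and AT3G44570, at 0.90, 0.84 and 0.83. The rank correlations (Spearman) of the same features were 0.94, 0.95 and 0.83 for L17, 0.97, 0.74 and 0.72 for AspRS, and 0.78, 0.53 and 0.73 for S6. L5 and S10 had no likeness above 0.74 and 0.76, and the nearest features were AT3G09850 for L5 and AT2G05120 for S10. None of the 5 genes was among the 3 nearest of another. The search ranked the highest r only, so it could not list opposite patterns.

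When deviations from the genotype means were used, so that the genotype difference itself was removed, L17 remained closest to AT4G31530 (r = 0.94 over 12 samples). The nearest feature to AspRS was then PRK (AT1G32060), the phosphoribulokinase of the Calvin cycle, at 0.83, and the nearest to S6 was AT3G44570 at 0.88. For L5 it was AT3G58570 at 0.83, and for S10 AT2G05120 at 0.74. The rank correlations (Spearman) were 0.94, 0.77, 0.66, 0.87 and 0.76 in the order given. Each feature is the highest of 509 over 12 samples. What the nearest of 509 unrelated features would reach was not computed, so none is shown to be a particular partner.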

How the data were processed

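Total RNA of 6 prors2 and 6 WT samples was measured on 1-channel arrays. The deposited table gives the authors' relative intensity per feature on a linear scale; of the array type, background correction and software nothing is stated in the labels. Groups and replicate numbers come from the labels. The table held 0 value columns of other samples and 0 identical columns. Of its features 692 had 1 gene in the platform's gene table, 870 had several and 1877 were not in it; 690 of the 692 matched the TAIR10.1 gene table. No array build is named, so no coordinates are printed.

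Array medians differed by more than 5%, so log2 values with zeros missing were quantile-normalized. Features with at least 4 of 6 values above 0 per group were fitted over the whole table with limma 3.58.1 (lmFit, eBayes; R 4.3.3), group as the only term, two-sided, adjusted by Benjamini-Hochberg over 3024 features, threshold 0.05. The number of arrays limits the precision. In simulated data with the spread of these features (3024 features, 100 changed at each size) the fit recovered 33% of changes of 0.5 and 67% of changes of 1 on the log2 scale, with 4 false among 104 calls. The simulation drew independent noise for each array and changed far fewer features than the 47.2% called here. Its shares therefore do not measure the recovery in the real comparison.

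Same-numbered prors2 and WT samples deviated together (correlations of 0.212 to 0.399 over 2654 complete features; the closest partner of 12 of 12 samples was the one of equal number). By that check the numbers pair the samples, which the labels do not state. The p-values and intervals given are unpaired, and the fit with the number as a block is an alternative. Alternatives were the replicate block, the 3 other scalings, 2 other treatments of zeros, filters, trend, robust and weighted fits, an exact permutation test per feature, and leaving out samples. Sets of neighbouring numbers were left out, and ratios taken on normalized values, after seeing the data.

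The genes, lists and tests were chosen with earlier results of these data known. The rule for named genes takes the 5 genes, list members, and the 3 most alike single-gene features by each measure. A search of the gene tables' names for 6 translation lists found 0 features: plastid, mitochondrial and other ribosomal proteins, aminoacyl-tRNA synthetases, translation factors, and tRNA and rRNA enzymes. It missed the 5 genes too, since the tables carry few product names, so it says nothing about which such genes the array holds. A list of 5 genes of plastid RNA maturation and translation was picked from the table's symbols after it was read. No sequence is shown, since no sequence table was used here.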

Additional observations from a re-analysis of the deposited data

Results flagged for a closer look

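S10 (AT3G13120) in WT replicate 3 stood apart from the other WT samples at a relative intensity of 0.749, against 0.214 to 0.375 in the other 5. The gap to the nearest sample was 0.699 of the group's whole range, above Dixon's critical value for 6 samples. This check used the linear deposited values and was not run on the log2 values that were fitted. On the normalized log2 scale WT replicate 3 lay at -0.35, the next WT sample at -1.06 and the lowest at -1.96. Of the 10 groups of 6 samples checked, 1 was marked in this way, and chance marks about 5% of groups if values are normally distributed. S10 did not pass with this sample or without it.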

How the results depend on the processing

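With the replicate block, which pairs prors2 and WT samples by number, no gene changed its call: the limma adjusted p was 0.00222 for L17, 0.0738 for L5, 0.108 for S6, 0.225 for S10 and 5.20e-04 for AspRS, and 1605 features were called against 1427. L17 did not pass after median centring (0.13), which left 1 of the 5 genes and 0 of the 4 ribosomal protein genes called. Without scaling the signs of L5, S6 and S10 turned positive (0.40, 0.16 and 0.34), as they did with equal sums (0.33, 0.086 and 0.27), none called; there the median feature itself lay at 0.76 and 0.69. Leaving out each sample gave 0.55 to 0.65 for L17, -0.34 to -0.13 for L5, -1.01 to -0.45 for S6, -0.43 to -0.12 for S10 and -1.49 to -1.25 for AspRS. S6 passed without prors2 replicate 6, so 2 to 3 genes and 1 to 2 ribosomal protein genes were called over these 12 fits, with 1329 to 1390 features called in all. The causes of these changes were not tested. The ratio of L17 over AspRS differed by 1.95 on quantile-normalized values and by 1.32 to 1.58 on the deposited values without each replicate number in turn. The same ranges were 0.44 to 0.66 for L17 over L5, 0.53 to 0.98 for L17 over S6, 0.50 to 0.78 for L17 over S10, 0.34 to 1.05 for S6 over AspRS, -0.11 to 0.27 for L5 over S10 and -0.48 to 0.26 for S6 over S10. S6 was too dim to stay in the fit without the dimmest 25% of features, so that alternative gave it no value. The exact permutation test per feature called L17 and AspRS (adjusted p = 0.00723 each, at the smallest p of 0.00216 that 6 against 6 samples allow). Zeros do not touch the 5 genes directly, and their treatment changed no call among them.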

Other observations

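Of 5 further nuclear genes for plastid RNA maturation and translation that the gene tables name, 1 was called, lower in prors2, against 47.2% of all features. ATAB2 (AT3G08010), which promotes translation of photosystem messages, had a relative intensity of 0.085 ± 0.050 in prors2 and 0.113 ± 0.026 in WT (SD, n = 6 each). It fell by 1.59 on the normalized log2 scale (limma adjusted p = 0.00576). The unscaled difference of -0.59 did not pass (limma adjusted p = 0.173), and the median-centred one of -1.41 did (limma adjusted p = 0.00989). PAC (AT2G48120), needed for plastid ribosome assembly, stood at 0.360 ± 0.13 in prors2 and 0.180 ± 0.048 in WT. Its normalized difference was 0.14 (limma adjusted p = 0.725), and on the deposited values it was called higher, at 0.95 (limma adjusted p = 0.00976). On that scale 57.8% of all tested features were called higher, and the median feature lay at 0.76.

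OTP70 (AT4G25270), a splicing factor for a plastid RNA polymerase message, differed by 2.27e-04 after normalization (95% interval -0.32 to 0.32, limma adjusted p = 0.999). Unscaled, it was called higher at 0.56, which is below the median feature at 0.76. The RNA editing factors CRR21 and OTP85 differed by 0.19 and 1.44 (limma adjusted p = 0.558 and 0.189), OTP85 over the 5 prors2 and 6 WT samples above 0. Both were called higher on the deposited values, at 0.80 and 2.42, as were 57.8% of all tested features. After median centring none of PAC, OTP70, CRR21 and OTP85 passed (limma adjusted p = 0.717, 0.143, 0.930 and 0.139), and 0 of these 4 passed after quantile normalization.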
